A study of Mus musculus with 9 samples.

Results

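The 32 neuropeptide precursor genes described here were taken from a list of gene names, and are 32 of the 54838 genes of the count table. All but Crhbp encode precursors of secreted peptides, and Crhbp encodes the secreted protein that binds corticotropin-releasing hormone. Transcripts were counted in 9 libraries of laser-captured mouse cells, with 3 libraries in each of the groups mCherry, c-fos and overlap, which are the entries of the genotype label. mCherry is a red fluorescent reporter protein, and c-Fos is the product of an immediate early gene that neurons switch on with activity. The design text of the series speaks of cells marked by CRD, by His or by both, without saying which of these is mCherry or c-fos, so the names of the label are kept. All 3 groups came from fixed frozen tissue, and strain, sex, age, treatment, the agents that carried the labels and the number of animals are not stated in the labels or the design text. The series title names the basolateral amygdala, whereas the cell type label and the extraction text name spermatocytes and testis.

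Neuropeptides are cut from larger precursors inside dense-core granules and, once released, act mostly on G protein-coupled receptors, more slowly and over longer distances than glutamate or GABA. In the amygdala the precursors divide the neurons into classes. Principal neurons of the basolateral amygdala are glutamatergic and many of them express Cck, its interneurons are known for Sst, Npy, Vip and Cck, and the neighbouring central nucleus is rich in Penk, Crh, Tac2, Nts and Pdyn. Oxytocin, vasopressin, melanin-concentrating hormone and orexin come mainly from hypothalamic neurons that send axons to the amygdala.

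Libraries held from 90091 to 429317 counts, so that 3 counts corresponded to between 6.99 and 33.3 CPM, which is a gene's counts scaled to the same total in every library. All 16 glutamatergic marker genes and 18 of 20 GABAergic ones had counts, summing per library to 807 to 1889 CPM and 191 to 1045 CPM. Transcripts of other brain cells were also abundant. The 10 oligodendrocyte markers summed to 2052 to 5997 CPM, above the glutamatergic sum in every library, and the 12 astrocyte markers to 699 to 1498 CPM. Of 18 spermatocyte markers 14 had counts, summing to 46.2 to 598 CPM, and the defining genes Sycp1 and Spo11 were among the 4 at 0. Fos ran from 30.2 to 158 CPM in mCherry libraries, from 284 to 376 CPM in c-fos and from 216 to 544 CPM in overlap. Libraries mCherry 3 and overlap 1 stood apart, with 8106 and 19647 CPM of insulin transcripts (Ins1 and Ins2 summed), the other 7 libraries having 247 to 990 CPM.

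Precursor transcripts were sparse. The 32 genes together held 823 of 2199270 counts. Transcripts of 20 of them were found in at least 1 library and 12 were at 0 in all 9, namely Npy, Vip, Cort, Cartpt, Grp, Gal, Pnoc, Nmb, Hcrt, Calcb, Ucn and Nms. A count of 0 over all libraries allows a level of up to 1.36 CPM, for counting error only. The zeros therefore covered Npy and Vip, which mark classes of amygdala interneurons, as well as Cartpt and Gal. Of the 20 detected genes, 13 had 10 or more counts, and 7 had between 1 and 9. Only Cck, Adcyap1, Oxt and Calca passed the filter on low counts and could be tested in the fit over all 7959 genes.

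**Figure D1:**
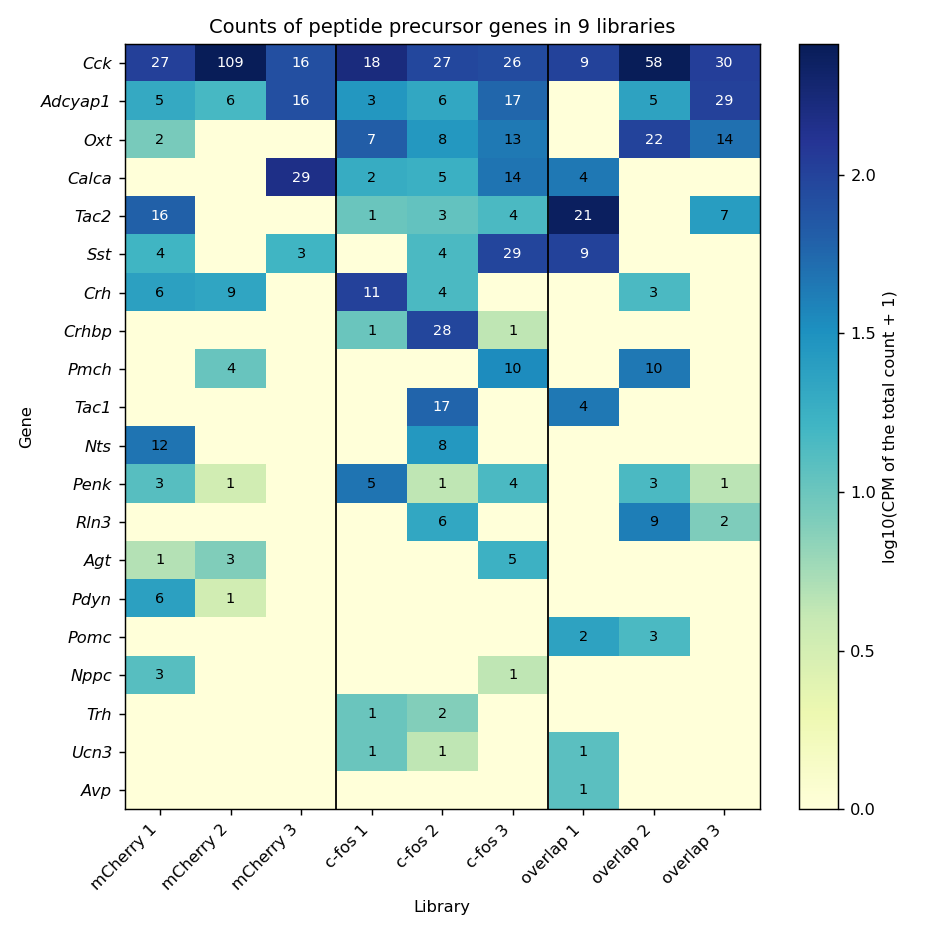
Counts of the 20 detected precursor genes (rows) in the 9 libraries (columns), with the count printed in each cell and the colour giving log10(CPM + 1). Cck had counts in every library, whereas Crhbp, Tac1 and Nts had most of theirs in 1.

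No member passed the test in any comparison. In edgeR's quasi-likelihood test with Benjamini-Hochberg adjustment, 0 of the 4 tested members were called between c-fos and mCherry, where 0% of all tested genes were. The same count was 0 between overlap and mCherry (0.0251% of all genes) and 0 between overlap and c-fos (0% of all genes), and 0 in the test for any group difference (0.0377%). DESeq2 and limma-voom also called 0 members, though DESeq2 gave Oxt and Calca no adjusted p between c-fos and mCherry. Before adjustment, Oxt alone had p under 0.05, in c-fos against mCherry (7.94% of all genes did) and in overlap against mCherry (14% of all genes). Between overlap and c-fos 0 members did (5.1% of all genes), and 0 in the test for any difference (10.3%). Comparisons against mCherry share the mCherry libraries and are not independent. The labels tie no library to an animal, so the p-values reflect the spread among libraries, which may be technical. Fewer cells with a transcript and less RNA per cell cannot be told apart.

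The summed level of the 32 genes was 327, 309.8 and 322 CPM in mCherry 1, 2 and 3, 458, 402 and 407 CPM in c-fos 1, 2 and 3, and 566, 501 and 293 CPM in overlap 1, 2 and 3. All 3 c-fos libraries lay above all mCherry libraries. Overlap 1 and 2 lay above all c-fos libraries, and overlap 3 lay below all mCherry libraries. The means were 319.5 ± 8.81 (SD, n = 3), 422 ± 31.3 and 453 ± 142 CPM, 1.32-fold and 1.42-fold that of mCherry. This order depended on the genes summed and on the scaling. Without Crhbp and Agt, c-fos 2 stood at 308 CPM, below mCherry 1 at 323 CPM and mCherry 3 at 322 CPM. With TMM scaling, which gave mCherry 3 a factor of 0.650, that library rose to 504 CPM and lay above all c-fos libraries at 374 to 406 CPM. Near-equal sums hid different genes, since Cck made up 82.0% of the precursor counts in mCherry 2 while Calca made up 45.3% in mCherry 3. Without Cck the sums were 223, 55.9 and 241 CPM in mCherry, 293, 311 and 322 in c-fos, and 466, 244 and 187 in overlap libraries.

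**Figure D2:**
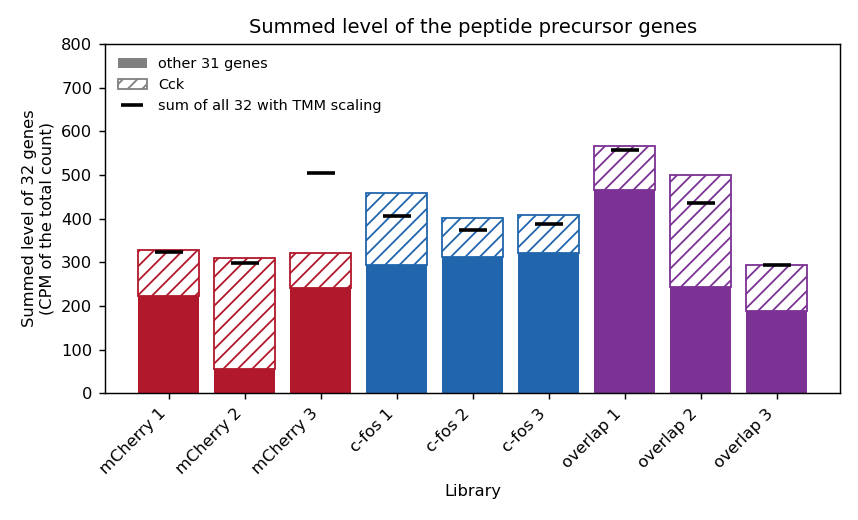
Summed level of the 32 precursor genes in each library in CPM of the total count, with Cck hatched and the other 31 genes solid, and a black mark for the sum under TMM scaling. The 3 c-fos bars stand above the 3 mCherry bars on the total-count scale, but the TMM mark of mCherry 3, at 504 CPM, lies above those of the c-fos libraries.

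The number of different precursors with counts was 11, 7 and 4 in the mCherry libraries, 10, 14 and 11 in the c-fos libraries, and 8, 8 and 6 in the overlap libraries. Expected at an equal depth of 90091 counts, it was 5.64 ± 2.83, 9.64 ± 1.01 and 6.68 ± 1.69 (SD, n = 3). The groups touched, as mCherry 1 stood at 8.90 and c-fos 3 at 8.88. The number of all genes expected at that depth was also highest in c-fos, 12792 ± 425 against 11056 ± 1521 in mCherry and 10949 ± 1205 in overlap, and its part in the count of precursors was not tested.

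Oxt, a hypothalamic peptide gene, had the smallest p of the 4 tested members in both comparisons with mCherry. Oxt encodes the precursor of oxytocin, a peptide made mainly in the paraventricular and supraoptic nuclei and released in the amygdala from their axons. It had 7.69, 0 and 0 CPM in mCherry 1, 2 and 3 from 2 counts, and 64.2, 26.8 and 42.7 CPM in c-fos 1, 2 and 3 from 7, 8 and 13 counts. Overlap 1, 2 and 3 had 0, 97.5 and 49.5 CPM from 0, 22 and 14 counts. Every c-fos library lay above every mCherry library, whereas overlap 1, the shallowest library, was at 0 and the overlap group overlapped with both others. The means were 2.56 ± 4.44, 44.5 ± 18.8 and 49.0 ± 48.8 CPM (SD, n = 3).

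The log2 fold change of Oxt was 3.71 ± 1.70 (SE) between c-fos and mCherry, with an unadjusted p of 0.0446 and an adjusted p of 0.608 in edgeR. Between overlap and mCherry it was 3.91 ± 1.70, with an unadjusted p of 0.0357 and an adjusted p of 0.324 in edgeR. Overlap and c-fos differed by 0.20 ± 1.42. Exact two-sided permutation tests of the CPM values gave p = 0.1, the smallest that 3 libraries against 3 allow, for c-fos against mCherry, 0.4 for overlap against mCherry and 0.9 for overlap against c-fos. Over the 19 settings that tested Oxt, its fold change ran from 3.01 to 6.32 in the first comparison and from 3.06 to 6.51 in the second, and the lowest adjusted p were 0.353 and 0.121. In the first, DESeq2 gave no adjusted p (unadjusted p = 0.0154 in DESeq2). The upper ends of the fold changes were reached without mCherry 1, which held both mCherry counts, and their size rests on the prior count of the fit, since the group is then at 0. The mCherry values were too low to carry Oxt past the filter, so the gene was tested because of its c-fos and overlap libraries.

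**Figure D3:**
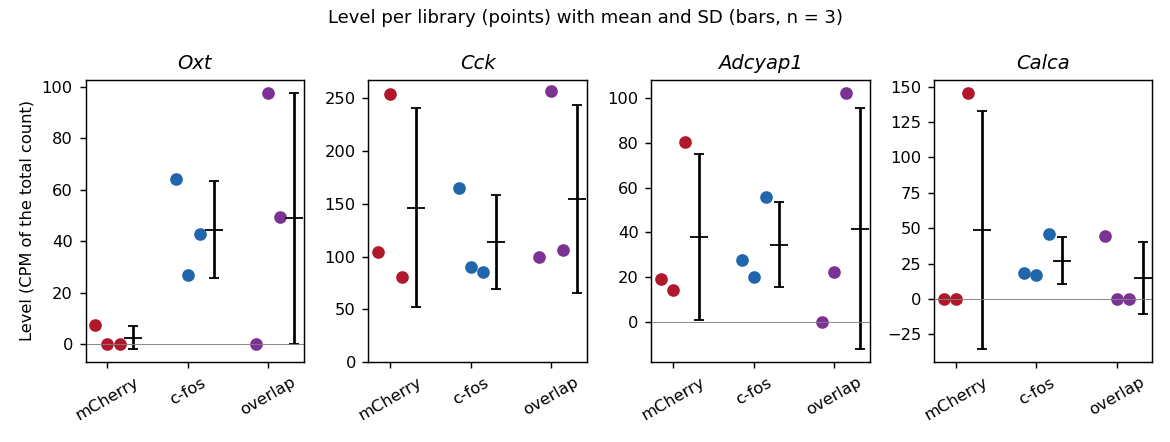
Level of the 4 tested precursor genes in CPM of the total count, with 1 point per library and the mean and SD of each group (n = 3). For Oxt the 3 c-fos points, at 26.8 to 64.2 CPM, lie above the 3 mCherry points, at 0 to 7.69 CPM, and for the other genes the groups overlap.

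Oxt was 1 of 2 members whose c-fos libraries all lay above all mCherry libraries, the other being Crhbp. These were 2 of the 13 members with 10 or more counts, where 8.26% of all such genes did so, and 0 members had all c-fos libraries lower (3.58% of all genes). Between overlap and mCherry 0 members had groups that did not overlap, against 4.53% of all genes higher and 6.38% lower. Between overlap and c-fos it was 1 member, Crhbp, in the lower direction (7.22% of all genes), and 0 in the higher direction (2.5%).

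Markers of hypothalamic neurons, a list of 15 genes of which 10 had counts, summed to 208, 90.8 and 70.4 CPM in mCherry, 302 (c-fos 1), 174 (c-fos 2) and 112 (c-fos 3) CPM, and 11.1, 146 and 315 CPM in overlap libraries. The groups overlapped. Sim1, a transcription factor of oxytocin neurons that the amygdala also expresses, had 3, 9 and 8 counts in the c-fos libraries and 0 in the other 6, while Otp, another such factor, had 1 count in all. Of all genes with 10 or more counts, 8.26% had all c-fos libraries above all mCherry libraries. In 7.22% of them, all overlap libraries lay below all c-fos libraries. Other hypothalamic markers did not follow Sim1. Hdc, with 241 of the 349 counts of the list, had 36, 33 and 6 counts in mCherry, 14, 22 and 21 in c-fos, and 1, 29 and 79 in overlap libraries, and Hmx2 had 0, 3 and 7 in mCherry, 1, 1 and 0 in c-fos, and 0, 1 and 0 in overlap libraries. Hmx3 had 3 of its 4 counts in mCherry, and Lhx9 had 15 of its 52 counts in mCherry 1 and 12, 13 and 4 in c-fos libraries. Nkx2-4, Th, Fezf1, Rax and Irs4 were at 0 in all libraries. The part of these cells in the Oxt values was not tested.

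The promoter of Oxt holds a composite hormone response element (TGACCT followed with no gap by TGACC, read on both strands), which is known to bind nuclear receptors. In the RefSeq promoter table of build GRCm38.p6 it occurs in the 300-base windows of 0.00740% of 27025 genes, and Oxt is the only one of the 27 members present in that table to carry it. A single fixed string of this length is rare in any set of windows, so this share says nothing particular of Oxt. The Oxt promoter is shown to place the element, which starts 166 bases before the transcription start. The 180 bases upstream are given, chr2:130575989-130576168 on the plus strand, with the element in capitals.
Oxt: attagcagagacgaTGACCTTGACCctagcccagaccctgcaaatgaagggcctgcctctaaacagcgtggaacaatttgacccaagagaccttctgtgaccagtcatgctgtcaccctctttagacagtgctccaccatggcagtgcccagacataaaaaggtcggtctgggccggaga

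The other hypothalamic peptides were rare. Avp, which encodes vasopressin and lies beside Oxt in the genome, had 1 count, in overlap 1. Pmch, the melanin-concentrating hormone precursor, was counted in 3 libraries, with 4 counts in mCherry 2 and 10 each in c-fos 3 and overlap 2. It overlaps Parpbp on the opposite strand, and the sources used here do not say whether counting used strand. Rln3, the relaxin-3 precursor best known from the brainstem nucleus incertus, had 6 counts in c-fos 2, 9 in overlap 2 and 2 in overlap 3. It was at 0 in mCherry, so that overlap lay at least 5.44-fold and c-fos at least 2.49-fold higher against the floor of 3 counts over the group, the latter from 1 library. Trh, the thyrotropin-releasing hormone precursor, had 3 counts, all in c-fos libraries, and Hcrt (orexin), Gal (galanin) and Nms (neuromedin S) had 0.

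Cck and Sst carried nearly all counts of the interneuron peptides. Cck, the cholecystokinin precursor, is expressed by principal neurons and by a class of basket cells, and had 320 counts. Its level was 104, 254 and 80.5 CPM in mCherry 1, 2 and 3, 165, 90.4 and 85.4 CPM in c-fos 1, 2 and 3, and 99.9, 257 and 106 CPM in overlap 1, 2 and 3. It was present in all 9 libraries, the groups overlapped, and mCherry 2, overlap 2 and c-fos 1 were the highest of their groups. The means were 146 ± 94.1, 114 ± 44.6 and 154 ± 89.0 CPM (SD, n = 3). Log2 fold changes were -0.62 ± 0.72 for c-fos against mCherry, -0.15 ± 0.72 for overlap against mCherry and 0.48 ± 0.72 for overlap against c-fos, with adjusted p of 0.951, 0.953 and 0.988 in edgeR. The sign of the second turned with total-count scaling, where it was 0.13.

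Sst encodes somatostatin, the peptide of dendrite-targeting interneurons. It had 4, 0 and 3 counts in mCherry, 0, 4 and 29 in c-fos, and 9, 0 and 0 in overlap libraries, which is 15.4, 0 and 15.1 CPM, then 0, 13.4 and 95.2 CPM, then 99.9, 0 and 0 CPM. c-fos 3 and overlap 1 were high, and each group held a library at 0. Npy, Vip and Cort, the other interneuron peptides of the list, had 0 counts. Beside them, summed GABAergic markers stood at 342, 606 and 191 CPM in mCherry, 1045, 743 and 640 CPM in c-fos, and 444, 652 and 657 CPM in overlap libraries, with Dlx5 and Sp8 at 0, so that every c-fos library lay above every mCherry library on the total-count scale. Single markers differed, with means in mCherry, c-fos and overlap of 17.2, 154 and 60.7 CPM for Slc32a1 and 26.9, 0 and 0 CPM for Dlx6. Markers of striatal and central amygdala neurons (14 of 14 with counts) summed to 942, 855 and 282 CPM in mCherry, 1650.0, 1181 and 1373 CPM in c-fos, and 1199, 1192 and 1007 CPM in overlap libraries. On the total-count scale every c-fos and every overlap library lay above every mCherry library, 2.02-fold and 1.63-fold on average. Foxp1 alone held 835 of the 2281 counts of the list, and Tshz1 gave 910 of the 1199 CPM in overlap 1. Several markers did not follow the sum. Prkcd had means of 60.9, 54.0 and 34.4 CPM in mCherry, c-fos and overlap. Rarb had 31.7, 19.8 and 9.59 CPM in that order, and Ppp1r1b 8.98, 7.21 and 0 CPM. The part of both marker sets in the precursor values, the summed level and the central amygdala precursors included, was not tested.

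The opioid precursors were near the limit of detection. Penk, the proenkephalin gene of striatal, central amygdala and intercalated neurons, had 3, 1 and 0 counts in mCherry, 5, 1 and 4 in c-fos, and 0, 3 and 1 in overlap libraries. It was spread over 7 libraries, the groups overlapped, and its mean was 4.62 ± 6.10, 20.8 ± 22.2 and 5.61 ± 6.89 CPM (SD, n = 3). Penk overlaps A830012C17Rik on the opposite strand. Pdyn, the dynorphin precursor, had 6 counts in mCherry 1 and 1 in mCherry 2 and 0 elsewhere, at least 1.87-fold above c-fos and 1.57-fold above overlap. Pomc, the precursor of beta-endorphin and melanocortins, had 2 and 3 counts in overlap 1 and 2 and 0 elsewhere. Pnoc, the nociceptin precursor, had 0 counts.

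Of the tachykinins, Tac2 encodes the neurokinin B precursor, which marks a class of central amygdala neurons. It had 16, 0 and 0 counts in mCherry, 1, 3 and 4 in c-fos, and 21, 0 and 7 in overlap libraries, reaching 61.5 CPM in mCherry 1, 9.17 to 13.1 CPM in c-fos and 233 CPM in overlap 1. The c-fos libraries were close to each other, and the highest values were those of overlap 1 and mCherry 1. Overlap 1 is also a library of high insulin transcripts, whose part in Tac2 was not tested. Tac1, the substance P precursor, had 17 counts in c-fos 2, 4 in overlap 1 and 0 in the other 7 libraries, so that c-fos lay at least 7.06-fold above mCherry, from 1 library.

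In the corticotropin-releasing hormone family, Crhbp and Crh did not follow each other. Crhbp, expressed in the brain by Sst interneurons among others, had 1, 28 and 1 counts in c-fos 1, 2 and 3 (9.17, 93.7 and 3.28 CPM) and 0 in all mCherry and overlap libraries. The c-fos group therefore lay at least 12.5-fold above mCherry and 8.40-fold above overlap, but 28 of the 30 counts were in c-fos 2. With no filter on low counts Crhbp entered the edgeR fit, where the adjusted p was 0.672 for c-fos against mCherry, 0.701 for overlap against c-fos and 0.289 for any difference (unadjusted 0.0265, 0.0322 and 0.0129). Crh, the hormone precursor, had 6, 9 and 0 counts in mCherry, 11, 4 and 0 in c-fos, and 0, 3 and 0 in overlap libraries, with c-fos 1 the highest at 101 CPM and each group holding a library at 0. Ucn3 (urocortin 3) had 1 count in each of c-fos 1, c-fos 2 and overlap 1, and Ucn (urocortin) had 0.

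Adcyap1 and Nts were the detected genes among the other forebrain peptides. Adcyap1 encodes PACAP, a peptide made by glutamatergic neurons. Its level was 19.2, 14.0 and 80.5 CPM in mCherry, 27.5, 20.1 and 55.8 CPM in c-fos, and 0, 22.2 and 102 CPM in overlap libraries. In each group 1 library stood above the others, and the groups overlapped. The means were 37.9 ± 37.0, 34.5 ± 18.9 and 41.5 ± 53.9 CPM (SD, n = 3). Log2 fold changes were -0.63 ± 1.35, -0.24 ± 1.34 and 0.39 ± 1.33 for c-fos against mCherry, overlap against mCherry and overlap against c-fos, with adjusted p of 0.985, 0.958 and 0.992 in edgeR. Their signs turned with the setting.

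Nts, the neurotensin precursor, had 12 counts in mCherry 1, 8 in c-fos 2 and 0 in the other 7 libraries. Its mCherry group lay at least 2.70-fold above overlap, from 1 library. Cartpt (the CART peptide), Grp (gastrin-releasing peptide, a marker of some amygdala principal neurons) and Nmb (neuromedin B) had 0 counts. Grp overlaps AC152076.4 on the opposite strand, and Nmb overlaps Sec11a on its own strand.

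Calca encodes calcitonin and the alpha form of calcitonin gene-related peptide, which reaches the amygdala in axons from the parabrachial nucleus. It had 0, 0 and 146 CPM in mCherry 1, 2 and 3, 18.3, 16.7 and 46.0 CPM in c-fos 1, 2 and 3, and 44.4, 0 and 0 CPM in overlap 1, 2 and 3. All c-fos libraries had counts, and mCherry 3 alone held 29 of the 54 counts. The group means were 48.6 ± 84.2, 27.0 ± 16.4 and 14.8 ± 25.6 CPM (SD, n = 3). The log2 fold changes were -1.49 ± 1.87, -2.66 ± 2.08 and -1.17 ± 2.04, with adjusted p of 0.953, 0.604 and 0.988 in edgeR, in the order c-fos against mCherry, overlap against mCherry and overlap against c-fos. Without mCherry 3 the first was 5.76 and the second 4.82, and without overlap 1 the second was -7.26 and the third -5.80. A group is then at 0, so the sizes rest on the prior count of the fit, but the direction against mCherry was set by 1 library, mCherry 3.

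That library and overlap 1, the only overlap library with Calca counts, are those with high insulin transcripts. Islet hormones (6 of 6 genes with counts, a list made after their values were seen) summed to 9439 CPM in mCherry 3, 22477 CPM in overlap 1 and 300.5 to 1155 CPM in the other 7 libraries. Their part in the Calca values was not tested. The related gene Calcb had 0 counts. Agt, the angiotensin precursor that astrocytes make in the brain, had 1 and 3 counts in mCherry 1 and 2 and 5 in c-fos 3, and Nppc (C-type natriuretic peptide) had 3 in mCherry 1 and 1 in c-fos 3.

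**Figure D4:**
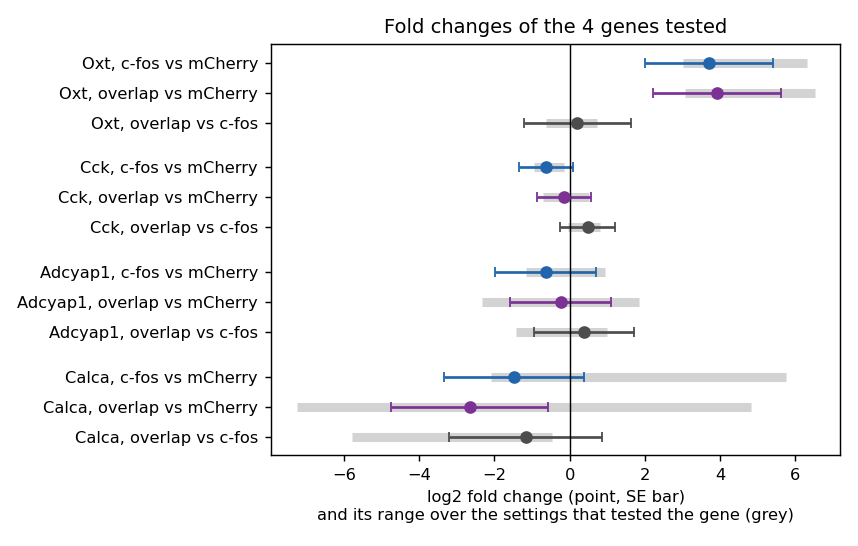
Log2 fold changes of the 4 tested precursor genes in the 3 comparisons, with points and SE bars from the edgeR fit and a grey band for the range over all settings that tested the gene. The bands of Oxt against mCherry lie above 0, from 3.01 to 6.32 and from 3.06 to 6.51, while those of Adcyap1 cross 0 in all 3 comparisons.

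Precursors differed in how far their counts lay in a single library. The library with most of a gene's counts held 93.3% of those of Crhbp, 81.0% of Tac1, 60% of Nts, 59.2% of Sst, 53.7% of Calca and 52.9% of Rln3. At the other end, it held 27.8% of those of Penk, 33.3% each of Oxt, Adcyap1 and Crh, and 34.1% of Cck. The median over the 13 members with 10 or more counts was 41.7%, against 39.3% over all 18058 such genes, and 6 of 13 members (46.2%) exceeded 50% against 30.5% of all genes, so that the members lay near the background. Within groups, the counts varied by more than counting error. The ratio of their chi-square to its degrees of freedom, which is 1 for counting error alone, had a median of 9.90 over the members and 5.89 over all genes. It was 21.3 for Calca, 19.9 for Tac2, 16.3 for Crhbp, 14.2 for Sst, 9.90 for Cck, 3.17 for Oxt and 2.84 for Penk.

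The gene with most precursor counts therefore changed from library to library. It was Cck in mCherry 1 and 2, c-fos 1 and overlap 2 and 3, Calca in mCherry 3, Crhbp in c-fos 2, Sst in c-fos 3 and Tac2 in overlap 1. The hypothalamic peptides as a class summed to 7.69, 9.32 and 0 CPM in mCherry, 73.3, 53.5 and 75.5 CPM in c-fos, and 11.1, 182 and 56.5 CPM in overlap libraries, mostly Oxt. The class of Crh, Crhbp and the urocortins summed to 119 CPM in c-fos 1, mostly Crh, and 110 CPM in c-fos 2, mostly Crhbp. It stood at 3.28 CPM in c-fos 3 and at 0 to 23.1 CPM in mCherry and overlap libraries.

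**Figure D5:**
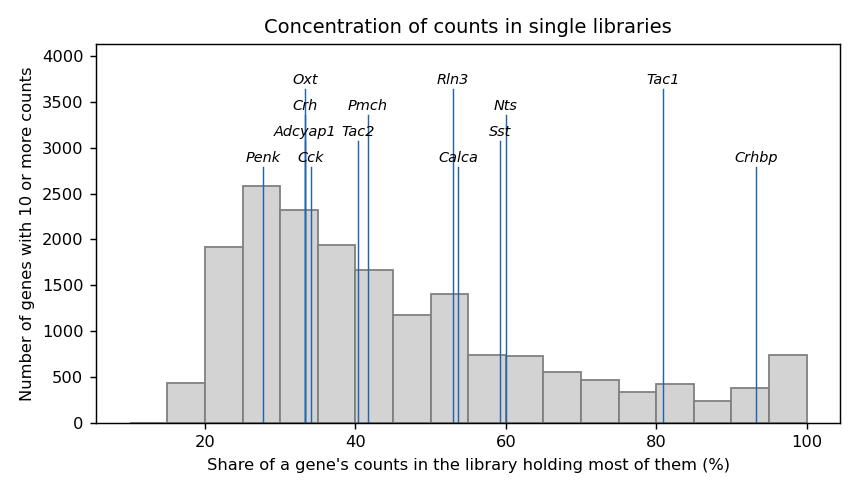
Share of a gene's counts that lay in the library holding most of them, as a histogram over the 18058 genes with 10 or more counts (grey) and as blue lines for the 13 precursor genes. Penk, Oxt, Crh, Adcyap1 and Cck lie to the left, from 27.8% to 34.1%, and Crhbp lies at 93.3%.

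Genes on the receiving side of the peptides gave no call either. Of 57 receptor genes, 40 had counts and 8 were tested, with 4 positive fold changes between c-fos and mCherry, 5 between overlap and mCherry and 5 between overlap and c-fos. The medians were 0.03, 0.17 and 0.34 on the log2 scale, against -0.01, -0.05 and 0.02 over all tested genes, and 0 were called. Mchr1, the receptor of melanin-concentrating hormone, had 15.4, 25.6 and 0 CPM in mCherry, 0, 6.69 and 49.3 CPM in c-fos, and 688, 8.86 and 91.9 CPM in overlap libraries. The highest value was in overlap 1, which also held high insulin transcripts, and the groups overlapped. The part of those transcripts in Mchr1 was not tested. The log2 fold change of overlap against mCherry was 4.04 ± 1.44 (adjusted p = 0.266 in edgeR). The mCherry values were too low to carry Mchr1 past the filter, so it was tested because of overlap 1, overlap 3 and c-fos 3. The next by p were the somatostatin receptor Sstr3 (overlap against mCherry -2.34 ± 1.26) and the opioid receptors Oprk1 (1.45 ± 1.11) and Oprm1 (-0.24 ± 1.30). The overlap values of Sstr3 were too low to carry it past the filter, so it was tested because of its mCherry and c-fos libraries.

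Receptors of the 4 tested precursors ranged from even to uneven. Oxtr, the oxytocin receptor, had 2 counts, both in mCherry 1. Cckbr, the main brain receptor of cholecystokinin, had 5, 39 and 7 counts in mCherry, 5, 36 and 15 in c-fos, and 21, 6 and 0 in overlap libraries, while Cckar, the other receptor of that peptide, had 25 counts in mCherry 2, 5 in mCherry 3 and 0 elsewhere. Adcyap1r1, the PACAP receptor, had 21, 6 and 1, then 0, 12 and 37, then 0, 2 and 28 counts, and it was at 0 in c-fos 1 and overlap 1. Calcrl, a subunit of the receptor of calcitonin gene-related peptide, was spread more evenly than Calca, with 5, 9 and 7 counts in mCherry, 2, 1 and 11 in c-fos, and 1, 0 and 5 in overlap libraries. All mCherry libraries lay above all overlap libraries in CPM for Calcrl. Calcr, the calcitonin receptor, had 71 of its 76 counts in overlap 3 and the other 5 in c-fos 1.

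The machinery that packs and cuts precursors was better covered, with counts for 23 of 23 genes and 18 tested, of which 8 were positive in each comparison and 0 were called. Medians were -0.13, -0.13 and -0.09, near those of all genes. Scg5, which encodes the chaperone 7B2 of the prohormone convertase PC2, had 27, 22 and 32 counts in mCherry, 0, 0 and 3 in c-fos, and 4, 0 and 19 in overlap libraries. All c-fos libraries lay below all mCherry libraries (log2 fold change -5.00 ± 1.56, unadjusted p = 0.00565, adjusted p = 0.567 in edgeR), as in 3.58% of all genes with 10 or more counts. The c-fos values were too low to carry Scg5 past the filter, so it was tested because of its mCherry and overlap libraries. Scg2, the activity-regulated granule protein secretogranin II, had 65.4, 32.6 and 126 CPM in mCherry, 266, 244 and 736 CPM in c-fos, and 677, 97.5 and 84.8 CPM in overlap libraries. All c-fos libraries lay above all mCherry libraries for Scg2 (2.04 ± 0.91, unadjusted p = 0.0390, adjusted p = 0.591 in edgeR), as in 8.26% of all genes with 10 or more counts. Cpe, carboxypeptidase E, stood at -0.73 ± 0.37 for c-fos against mCherry, and Pam, the amidating enzyme, at -2.66 ± 1.24 for overlap against c-fos.

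Of 13 genes for peptide-degrading enzymes, 12 had counts and 4 were tested, with 3, 2 and 2 positive fold changes, medians of 0.69, -0.14 and -0.37, and 0 called. Ece1, endothelin-converting enzyme, had 5, 8 and 4 counts in mCherry, 11, 15 and 22 in c-fos, and 2, 0 and 0 in overlap libraries (overlap against c-fos -3.68 ± 1.63, adjusted p = 0.943 in edgeR). For Ece1, no mCherry or overlap library reached the lowest c-fos value. Of the 18058 genes compared in this way, 8.26% had all c-fos libraries above all mCherry libraries. All overlap libraries lay below all c-fos libraries in 7.22% of them. The mCherry and overlap values were too low to carry Ece1 past the filter, so it was tested because of its c-fos libraries. The other 3 tested, the neurolysin gene Nln, Lnpep and Thop1, had fold changes of 0.81 ± 0.81, 0.57 ± 1.58 and -0.11 ± 1.32 between c-fos and mCherry.

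A further list of 44 genes outside the members held peptide precursors and related secreted proteins, among them cerebellins and neurexophilins. Of these, 26 had counts and 6 were tested, with 2, 4 and 4 positive fold changes, medians of -0.28, 0.70 and 1.77, and 0 called. Those of smallest p included the islet hormones Gcg and Iapp. Gcg had 34.6, 11.6 and 679 CPM in mCherry, 101, 23.4 and 52.5 CPM in c-fos, and 688, 13.3 and 159 CPM in overlap libraries. Iapp stood at 26.9 to 144 CPM in 7 libraries, at 588 CPM in mCherry 3 and at 1643 CPM in overlap 1, so that both peaked in the libraries of high insulin transcripts. Cbln4, a cerebellin-family synaptic ligand, and Qrfp, the precursor of a hypothalamic RFamide peptide, followed, at 1.43 ± 1.22 and -0.85 ± 1.22 for overlap against mCherry.

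Promoter sequence, which the choice of genes did not use, was searched for short motifs. The core TGACG of the cyclic AMP response element, which binds the activity-regulated factor CREB, was present on either strand in the promoters of 13 of the 27 members in the RefSeq table (48.1%), against 23.0% of all 27025 genes. The 13 were Adcyap1, Calca, Cartpt, Cck, Cort, Crhbp, Gal, Nts, Sst, Tac1, Trh, Ucn and Vip. The full palindrome TGACGTCA, which contains the core, was present in Cartpt, Sst and Ucn (11.1%), against 2.03% of all genes, and TGANTCA, the AP-1 motif of Fos and Jun dimers, in Avp, Nms, Nts and Pmch (14.8% against 8.97%). The TATA box motif TATAAA was also searched on either strand and was present in 9 members (33.3%), against 15.7% of all genes. A higher share in the members was therefore not particular to the core. These shares describe letters in a window and say nothing of binding. Penk, Crh, Grp, Pnoc and Calcb were not among the 27. Neither the core nor the AP-1 motif was found in the window of Oxt, and 7 of the 13 genes with the core were among those with 10 or more counts.

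The upstream 180 bases are shown for the tested genes with the core and for Crhbp and Sst, to show where it lies, with the core in capitals (the whole palindrome for Sst) and each sequence written 5′ to 3′ on the strand of its gene. The core shown starts 91 bases before the transcription start in Adcyap1, 65 in Calca, 64 in Crhbp, 48 in Sst and 47 in Cck. They are chr17:93198837-93199016 on the plus strand for Adcyap1, and on the minus strand chr7:114636358-114636537 for Calca, chr13:95444832-95445011 for Crhbp, chr16:23890845-23891024 for Sst and chr9:121495695-121495874 for Cck, in RefSeq build GRCm38.p6.
Adcyap1: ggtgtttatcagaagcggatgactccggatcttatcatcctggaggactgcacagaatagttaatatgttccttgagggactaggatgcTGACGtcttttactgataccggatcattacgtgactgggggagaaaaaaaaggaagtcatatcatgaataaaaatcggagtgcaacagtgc
Calca: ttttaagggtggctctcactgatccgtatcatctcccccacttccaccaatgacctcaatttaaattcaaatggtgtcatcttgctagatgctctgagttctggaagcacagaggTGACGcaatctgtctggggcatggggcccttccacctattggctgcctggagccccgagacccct
Crhbp: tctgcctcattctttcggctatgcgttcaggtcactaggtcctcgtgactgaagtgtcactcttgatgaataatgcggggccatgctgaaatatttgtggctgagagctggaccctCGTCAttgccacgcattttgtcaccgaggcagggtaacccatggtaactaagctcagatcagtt
Sst: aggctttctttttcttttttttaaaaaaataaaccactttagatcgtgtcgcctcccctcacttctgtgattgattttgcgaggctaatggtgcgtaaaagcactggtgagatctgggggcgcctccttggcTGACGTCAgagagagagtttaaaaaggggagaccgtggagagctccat
Cck: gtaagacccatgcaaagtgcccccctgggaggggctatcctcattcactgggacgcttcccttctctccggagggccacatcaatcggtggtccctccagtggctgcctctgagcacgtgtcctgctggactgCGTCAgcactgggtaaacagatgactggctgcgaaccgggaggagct
A core lay within 100 bases of the start in all 5 genes, which were shown because they carry it. Adcyap1 had another core 242 bases before the start, outside the stretch shown. Of the carriers not shown, Nts (166 bases) and Cartpt (112 and 109) had it only farther out. Cort, Gal, Tac1, Trh, Ucn and Vip had it within 100 bases. Cck had counts in all 9 libraries, Adcyap1 in 8, Calca in 5, Sst in 5 and Crhbp in 3. The part of the core in these values was not tested.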

How the data were processed

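The authors deposited 1 table of whole-number counts per gene in 9 libraries, and every column matched a sample by name. Libraries were made by Smart-3SEQ, which reads the 3′ ends of polyadenylated RNA, per the labels' protocols. Trim Galore, STAR, UMI-tools and featureCounts with build mm9 were used, per the submitters' processing notes. Versions, settings, strand handling and the use of molecular identifiers are not stated there, so intervals and floors cover counting error only. Symbols were assigned to 54723 of 54838 Ensembl identifiers, and the other 115 held 0.222% of counts. The GENCODE annotation at hand belongs to another build and was used for names and overlaps only.

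Levels are CPM of the total count. All 9 libraries entered 1 fit with edgeR 4.0.16 under R 4.3.3. Genes were kept by filterByExpr at a minimum count of 10, libraries were scaled by TMM, and p-values of the quasi-likelihood test were adjusted by Benjamini-Hochberg over 7959 genes and called under 0.05. The common dispersion came to 0.735. The script was tested on simulated counts. Alternatives were other scalings, no filter or a minimum count of 20, DESeq2 1.42.0, limma-voom (limma 3.58.1), 2 groups alone, a replicate block, and libraries left out. Exact permutation tests were 2-sided over libraries, 12 in all and unadjusted.

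The members and gene lists were chosen with earlier results of these data known. Tested members, members with 10 or more counts, and up to 4 tested genes per further list with the smallest p for any group difference were named. Sim1, Otp, Hdc, Hmx2, Hmx3, Lhx9 and the receptors of tested precursors were added after their values had been seen. So were Foxp1, Tshz1, Prkcd, Rarb, Ppp1r1b, Slc32a1 and Dlx6. Fold bounds set a group at 0 against 3 counts over that group. Promoter windows span 250 bases before to 50 after the start, from RefSeq.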

Additional observations from a re-analysis of the deposited data

How the results depend on the processing

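The number of members called stayed at 0 in every setting run, though DESeq2 gave Oxt and Calca no adjusted p between c-fos and mCherry. The number of all genes called between c-fos and mCherry, 0 in the fit reported, was 1 with upper quartile scaling, total-count scaling, scaling on the 200 most abundant genes, the stricter filter, and mCherry 3 and overlap 1 left out together, 253 with no filter, 3 with DESeq2 and 4 with limma-voom. Between overlap and mCherry, 2 became 0 with DESeq2 size factors, those same 3 scalings, the stricter filter, 2 groups alone and both libraries left out, 344 with no filter, 188 with DESeq2 and 37 with limma-voom. Between overlap and c-fos, 0 became 41, 6 and 3 with these last 3, and 1 with 2 groups alone and with both libraries left out. Leaving out 1 library at a time gave 0 to 1, 2 to 20 and 0 to 9 genes in the 3 comparisons. The cause of these shifts was not tested. With the replicate number as a block, 10 genes were called between overlap and mCherry and 3 between overlap and c-fos, but the numbers did not pair the libraries, since correlations of deviations ran from -0.03 to 0.04 between same-numbered libraries and from -0.04 to 0.03 between others.

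Of 220 fold changes of members, 26 turned sign and 194 did not. Without 1 library the range was -0.70 to 0.33 for Cck, overlap against mCherry, -0.053 to 0.75 for Cck, overlap against c-fos, and -0.64 to 0.73 for Oxt, overlap against c-fos. It was -1.16 to 0.95, -2.32 to 1.31 and -1.44 to 1.00 for Adcyap1 in the 3 comparisons, and -2.10 to 5.76 and -7.26 to 4.82 for Calca against mCherry in c-fos and overlap. For Calca in overlap against c-fos it was -5.80 to -0.48 with no change of sign, the lowest without overlap 1. Cck in overlap against mCherry was 0.068 with DESeq2 size factors, 0.071 with DESeq2, 0.13 with total counts and 0.51 with the 200 genes. Adcyap1 was 0.40 with limma-voom and 0.95 without both libraries in c-fos against mCherry, 0.27 (total counts), 0.65 (200 genes), 0.33 (limma-voom) and 1.84 (without both libraries) in overlap against mCherry, and -0.074 (limma-voom) and -0.28 (block) in overlap against c-fos. Calca in c-fos against mCherry was 2.26 with limma-voom and 0.35 with the block. Oxt, Adcyap1 and Calca did not pass the stricter filter, nor did Adcyap1 and Calca pass with 2 groups alone, Oxt with 2 groups alone against mCherry, or Calca without both libraries.

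The summed level of the members, c-fos minus mCherry, was 0.40 on the log2 scale, 0.092 with TMM scaling, 0.089 with DESeq2 size factors, 0.24 with upper quartile scaling, 1.10 without Cck and 0.26 without Crhbp and Agt, and 0.34 to 0.44 without 1 library. Depth limits these results, since 28 of the 32 members had too few counts for a test and 3 counts in the shallowest library equal 33.3 CPM.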
